A study of Mus musculus with 4 samples.

Results

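The heat shock and chaperone genes examined here were *Hspa1a*, *Hspa1b*, *Hspa8*, *Dnajb1*, *Hsph1*, *Bag3*, *Hsp90aa1*, *Hspb1*, *Hspd1* and *Hspe1*. They were taken as a named list of 10 of the 27998 genes in the deposited tables, and every one of them was counted in each of the 4 libraries. Their unique molecular identifiers (UMIs, each standing for 1 captured RNA molecule) were followed across libraries, across myogenic states, across the non-myogenic cells of the sort, and cell by cell against *Fos*. The study profiled satellite cells, the stem cells of skeletal muscle, from a pair of mouse models of Duchenne muscular dystrophy and their wild-type counterparts by single-cell RNA-seq. Lower hindlimb muscle was digested with collagenase B and dispase II in a heated dissociator, and cells positive for ITGA7 and VCAM1 and negative for Cd11b, Sca1, Cd45 and Cd31 were sorted. Libraries were 10X Genomics 3′ libraries, which count only the 3′ end of each transcript.

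B10 cells came from wild-type C57/Bl10ScsSn mice aged 15 weeks, and *mdx* cells from C57BL/10ScSn-Dmdmdx mice aged 11 weeks. DBA cells came from wild-type DBA/2 mice aged 13 weeks, and D2-*mdx* cells from D2.B10-Dmdmdx mice aged 14 weeks. The *mdx* and D2-*mdx* mice carry the mdx allele of *Dmd*, the dystrophin gene, on the B10 and the DBA background respectively. Each strain was 1 library from 2 pooled male mice, so there were no replicates, age differed between every pair of strains, and no test between strains was possible. Intervals given below are 95% intervals for counting error only, and they say nothing of the spread between mice.

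Filtering kept 4581 cells of B10, 6313 of *mdx*, 3279 of DBA and 5756 of D2-*mdx*, and 4418, 4820, 2700 and 4189 of these were myogenic. The myogenic cells held between 30126637 and 40374016 UMIs per library. Over all kept cells, the median cell had between 6666 (D2-*mdx*) and 10434 (DBA) UMIs. B10 stood apart before filtering, with 4739 barcodes under 1000 genes. *Pax7*, the defining satellite cell transcription factor, was present at 424 to 907 CPM, UMIs scaled to a library total of 1000000, *Itga7* at 62.4 to 82.6 CPM and *Vcam1* at 353 to 578 CPM. *Dmd* was at 324, 120, 287 and 94.4 CPM in B10, *mdx*, DBA and D2-*mdx*, which 3′ counts cannot relate to the point mutation itself. Between 5 and 16 cell barcodes were shared by any pair of libraries.

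Heat shock proteins are chaperones that bind unfolded or partly folded proteins. The cytosolic HSP70 cycle is started by J-domain proteins such as DNAJB1, which load clients onto HSP70, and is ended by nucleotide exchange factors such as HSPH1 and BAG3. When cells are warmed, dissociated or otherwise stressed, heat shock factor 1 binds inverted repeats of GAA upstream of *Hspa1a*, *Hspa1b*, *Dnajb1*, *Hsph1*, *Bag3* and *Hspb1* and drives their transcription, while *Hspa8* is transcribed in unstressed cells as well. *Hsp90aa1* encodes an inducible HSP90, and *Hspd1* and *Hspe1* encode the HSP60 and HSP10 subunits of the chaperonin that folds proteins inside mitochondria. *Fos* encodes a subunit of the AP-1 transcription factor and is an immediate-early gene, transcribed within minutes of many stimuli, tissue dissociation among them.

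The 250 bases upstream of the transcription start are shown for 3 members because they hold inverted GAA repeats next to each other or in a copy shared with another member (RefSeq, build GRCm38.p6, 5′ to 3′, with the repeats in capitals). *Hspa1a* lies at chr17:34972157-34972406 on the minus strand, *Hspb1* at chr5:135887669-135887918 on the plus strand and *Hspe1* at chr1:55087898-55088147 on the plus strand.
Hspa1a: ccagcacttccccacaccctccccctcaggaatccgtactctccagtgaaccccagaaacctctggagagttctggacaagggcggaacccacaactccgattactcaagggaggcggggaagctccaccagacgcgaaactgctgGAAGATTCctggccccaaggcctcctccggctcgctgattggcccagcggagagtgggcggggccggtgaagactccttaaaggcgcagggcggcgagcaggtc
Hspb1: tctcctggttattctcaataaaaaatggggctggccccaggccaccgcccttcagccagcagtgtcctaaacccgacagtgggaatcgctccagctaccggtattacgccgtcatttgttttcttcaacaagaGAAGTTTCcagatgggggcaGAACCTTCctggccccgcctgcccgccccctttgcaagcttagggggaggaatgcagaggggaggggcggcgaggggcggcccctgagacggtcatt
Hspe1: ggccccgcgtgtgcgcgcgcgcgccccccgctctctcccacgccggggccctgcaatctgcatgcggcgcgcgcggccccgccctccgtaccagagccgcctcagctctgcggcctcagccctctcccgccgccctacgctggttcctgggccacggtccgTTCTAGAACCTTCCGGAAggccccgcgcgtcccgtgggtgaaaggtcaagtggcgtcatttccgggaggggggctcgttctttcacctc
The motifs searched were GAANNTTC and TTCNNGAA, in which N is any base and which read the same on both strands. *Hspa1a* had 1 match, 104 to 97 bases before the start (position -104 to -97). *Hspb1* had 2 matches that did not overlap, beginning at -117 and -97. *Hspe1* had 3 matches that overlapped within the bases from -89 to -72. *Hspa1b*, at chr17:34959239-34959488 on the minus strand, had the same match as *Hspa1a* at the same place. Its 250 bases differed from those of *Hspa1a* at 3 positions counted from the 5′ end of the stretch (C44T, T47C and T249G, *Hspa1a* base first), which made them 98.8% identical. *Hsph1* had 1 match at -33. *Hspd1* lies on the minus strand beside *Hspe1*, its first listed start 95 bases inside the transcribed side of the *Hspe1* start, so that transcripts from these starts overlap, and the 250 bases before the first listed start of *Hspd1* held no match. The bases before the second listed start of *Hspd1* overlapped those of *Hspe1* by 215 bases and held the same 3 matches. *Dnajb1* and *Bag3* held no such match, and *Bag3* alone among the members with an entry held an AP-1 type motif, TGANTCA, at -20. In all, 5 of the 8 members with a promoter entry held a match at their first start site, against 12.9% of 27025 genes, and 2 or more matches were held by 1.4% of genes. *Hspa8* and *Hsp90aa1* had no entry. A match is a description of the letters and not a shown binding site.

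*Hspa1a* and *Hspa1b* are neighbouring genes for nearly the same HSP70 protein. Over 1926 aligned coding bases they differed at 7, but none of the 451 windows of 50 bases in the last 500 bases of either transcript occurred in the other, so the 3′ ends that these libraries count are distinct. Reads from the coding part could still be split between them, so their sum is given as well.

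Between the libraries, *Hspb1* and the mitochondrial chaperonin genes were higher in both dystrophic strains than in their wild-type counterparts, while the inducible HSP70 genes were lower. Over all myogenic cells, only the *Hspb1*, *Hspe1* and *Hspa8* differences kept their direction in both comparisons under the 8 other scalings, filters and choices of cells tried, although single clusters went against *Hspb1* (cluster 4, -0.22 in *mdx* over B10), *Hspe1* (cluster 7, -0.12 in D2-*mdx* over DBA) and *Hspa8* (cluster 4, -0.03, and cluster 7, -0.05, in the same order of comparisons). Within cells with the markers of muscle stem cells alone, *Hspa1a* was higher by 0.46 on the log2 scale in *mdx* than in B10 and by 0.12 in D2-*mdx* than in DBA, and the ratios of *Hspd1* were -0.065 and -0.32. *Hspb1*, the small heat shock protein HSP27, was at 565 CPM in B10, 1477 CPM in *mdx*, 297 CPM in DBA and 697 CPM in D2-*mdx*. *mdx* therefore stood above all other libraries, and DBA below all others. On the log2 scale *mdx* exceeded B10 by 1.39 (1.36 to 1.41), and D2-*mdx* exceeded DBA by 1.23 (1.20 to 1.27). Within either genotype the DBA background was lower, at -1.08 (-1.11 to -1.06) for D2-*mdx* over *mdx* and -0.93 (-0.97 to -0.89) for DBA over B10. Over the alternatives the first ratio ranged from 1.22 to 1.87 and the second from 0.92 to 1.60. Of all genes tested, 97.0% had a lower ratio than *Hspb1* in *mdx* over B10.

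Counts past 2-fold were read against all genes that reached 10 CPM in a library of the pair. *Hspb1* was the 1 member of 10 past 2-fold in *mdx* over B10, where 9.89% of genes were past it in either direction. In D2-*mdx* over DBA there were 2 members past it, *Hspb1* higher and *Hspa1b* lower, against 11.7% of genes. *Hspa1b* lay just past the fold, at -1.03, and under 6 of the 8 other scalings, filters and choices of cells it lay between -0.98 and -0.41. In D2-*mdx* over *mdx* only *Hspb1* was past it, in the lower direction, against 3.55% of genes, and in DBA over B10 no member was, against 3.55% of genes. The share of members past 2-fold was thus near the share of all genes in the dystrophic comparisons. The median ratio of the 10 members was -0.14 in *mdx* over B10 and 0.11 in D2-*mdx* over DBA, against -0.03 and -0.07 for all genes.

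Both inducible HSP70 genes were lowest in D2-*mdx*. *Hspa1a* was at 2452 CPM in B10, 2179 CPM in *mdx*, 1983 CPM in DBA and 1397 CPM in D2-*mdx*. *Hspa1b* was at 2435 CPM in B10, 1927 CPM in *mdx*, 2143 CPM in DBA and 1048 CPM in D2-*mdx*. The intervals of no 2 libraries overlapped for either gene, at 36646 to 97817 UMIs per library. The share of all genes without such overlap was not computed, here or for the other members. The log2 ratio of *Hspa1b* was -0.34 in *mdx* over B10 and -1.03 in D2-*mdx* over DBA, and that of *Hspa1a* was -0.17 and -0.51. Their sum was at 4106 CPM in *mdx* and 4126 CPM in DBA, which did not differ beyond counting error, with B10 above both at 4887 CPM and D2-*mdx* below both at 2445 CPM.

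Of the co-chaperones that act on HSP70, *Dnajb1* and *Bag3* varied less between libraries than the inducible HSP70 genes. *Dnajb1* was at 561, 517, 404 and 415 CPM in B10, *mdx*, DBA and D2-*mdx*, so both B10-background libraries lay above both DBA-background libraries, and the latter pair overlapped in their intervals. *Hsph1*, the HSP110 exchange factor, was at 198, 152, 165 and 106 CPM in the same order and was lower in each dystrophic library than in its counterpart, by -0.38 and -0.64 on the log2 scale. *Bag3*, which links HSP70 to selective autophagy, was at 90.3, 64.2, 64.1 and 62.3 CPM, and the last 3 overlapped in their intervals. B10 was thus the highest library for each of these 3 co-chaperones.

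*Hspa8*, the constitutive HSP70, was at 2070 CPM in B10, 2663 CPM in *mdx*, 1743 CPM in DBA and 2142.5 CPM in D2-*mdx*. It was higher in each dystrophic library than in its counterpart, with log2 ratios of 0.36 and 0.30, the opposite direction to *Hspa1a* and *Hspa1b*. *Hsp90aa1* was at 855, 604, 526 and 597 CPM, so that its log2 ratio was -0.50 (-0.52 to -0.48) in *mdx* over B10 but 0.18 (0.15 to 0.21) in D2-*mdx* over DBA. Whether those ratios differ beyond the spread between mice was not tested. *mdx* and D2-*mdx* overlapped for this gene.

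The chaperonin pair was highest in the dystrophic libraries. *Hspd1* was at 250, 332, 271 and 401 CPM in B10, *mdx*, DBA and D2-*mdx*, with log2 ratios of 0.41 and 0.57 over the wild-type counterparts. *Hspe1* was at 329, 535, 324 and 565 CPM, with log2 ratios of 0.70 and 0.81, and B10 and DBA overlapped. These were smaller than 2-fold.

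Summed, the 10 members took a larger share of myogenic UMIs on the B10 background (B10 0.981% and *mdx* 1.05%) than on the DBA background (DBA 0.792% and D2-*mdx* 0.743%). The 6 stress-inducible members (*Hspa1a*, *Hspa1b*, *Dnajb1*, *Hsph1*, *Bag3* and *Hspb1*) summed to 6300, 6317, 5056 and 3725 CPM. The B10 and *mdx* sums overlapped, with a log2 ratio of 0.00, with *Hspa1a* and *Hspa1b* lower and *Hspb1* higher in *mdx*. The log2 ratio of the D2-*mdx* sum was -0.44 to DBA and -0.76 to *mdx*. The ratio to DBA was -0.14 with cells weighted equally and turned to 0.13 within MuSC-like cells. *Fos*, by comparison, was at 8761, 8006, 7111 and 8903 CPM.

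**Figure D1:**
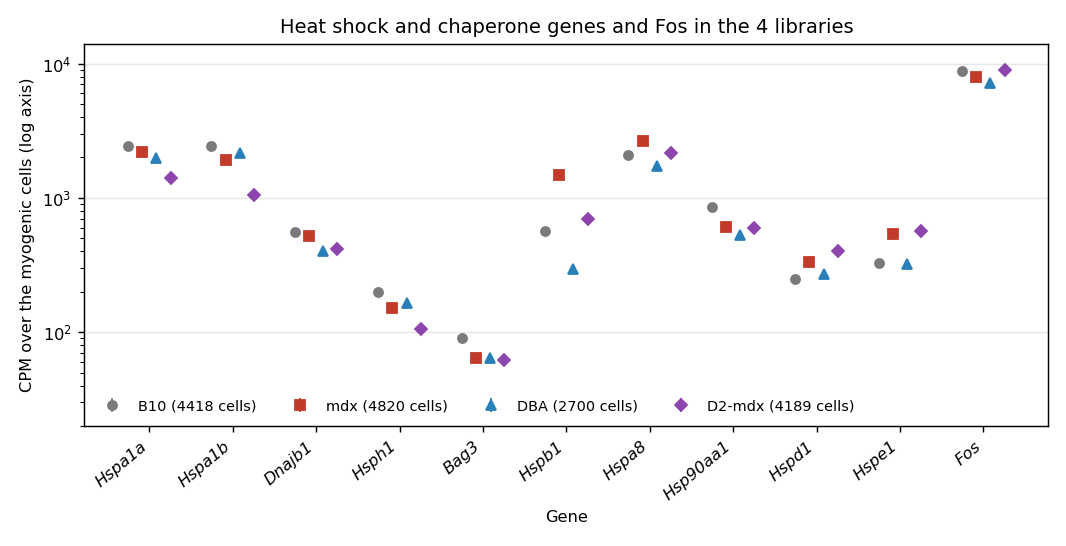
CPM of each heat shock and chaperone gene and of *Fos* over the myogenic cells of each library (y axis, log scale; 1 point per library, 95% counting intervals mostly inside the points). *Hspb1* spans the widest range of the members, from 297 CPM in DBA to 1477 CPM in *mdx*, and *Hspa1a* and *Hspa1b* are lowest in D2-*mdx*.

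Several measures of other cells and of RNA moved with the dystrophic genotype. RNA of mature myofibres (10 genes) summed to 44.3, 165, 36.3 and 379 CPM in myogenic cells of B10, *mdx*, DBA and D2-*mdx*, and erythrocyte RNA (4 genes) to 275, 460, 298 and 923 CPM. White blood cell markers summed to 1.23 to 97.4 CPM over 6 genes, with *Ptprc* at 0 in B10, and vascular smooth muscle markers to 411 to 791 CPM over 6 genes. The part of these in the member ratios was not tested. Endothelial-like cells had more *Hspb1* than myogenic cells. The 6 endothelial markers summed to 3.16, 8.99, 4.35 and 10.4 CPM in myogenic cells, with *Tie1* at 0 in DBA, against 5947 to 8599 CPM in the endothelial-like cells, and the part of endothelial RNA in the *Hspb1* ratios was not tested.

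Other chaperones were read from a list of 55 cytosolic and mitochondrial chaperone genes, of which 48 were tested in *mdx* over B10 and 47 in D2-*mdx* over DBA. In *mdx* over B10, 1 of them was past 2-fold higher (*Hspb8*, a small heat shock protein that works with BAG3, named after its value was seen, at 2.20) and 0 lower, with a median log2 ratio of 0.20. In D2-*mdx* over DBA, 3 were higher and 0 lower, with a median of 0.25, and *Hspb8* was not among those 3. Among all genes, 9.89% and 11.7% were past 2-fold in either direction in these comparisons, more than in the list. The 3 with the largest mean ratio were *Hspb2*, a small heat shock protein of muscle (0.85 and 1.40), *Bag1*, an HSP70 exchange factor (0.95 and 1.20), and *Hspa4l*, an HSP110 relative (0.64 and 1.27). All 7 measured subunits of the cytosolic chaperonin CCT, which folds actin and tubulin, had ratios above 0 in both comparisons. Their medians were 0.33 and 0.34, against -0.03 and -0.07 for all genes. The share of all genes above 0 was not computed, and the CCT ratios were not read within clusters.

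Myogenic cells formed 9 clusters when the members, the other chaperones and the immediate-early genes were all left out of the clustering, so that the members did not set them. They are named from fixed markers. Clusters 0, 1, 6 and 7 were MuSC-like (muscle stem cell), cluster 2 DMD-enriched-like with *Postn* leading, cluster 3 differentiating myocyte-like, clusters 4 and 5 cycling progenitor-like, and cluster 8 immunomyoblast-like with interferon response genes. Cluster 1 was led by *Cxcl1*, *Csrnp1*, *Ier3* and *Nr4a1*. Cluster 4 rested on 3 detected markers and was led by *Esm1*, *Fosl1* and *Tnc*. Levels are given where a library had at least 20 cells in a cluster, and a cluster comparison is a description.

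Averaged over libraries, the stress-inducible members were highest in the MuSC-like clusters 1 (8264 CPM) and 7 and lowest in the cycling cluster 5 (979 CPM). Cluster 0, the largest, held them at 5801 CPM in B10, 7360 CPM in *mdx*, 4948 CPM in DBA and 5087 CPM in D2-*mdx*. Cluster 5, the mitotic cluster led by *Cenpf*, held them at 1350 CPM in *mdx*, 722 CPM in DBA and 863 CPM in D2-*mdx*. In each of these 3 libraries cluster 5 was therefore lower, with log2 ratios of -2.78 to -2.45. *Hspa1a* and *Hspa1b* went furthest, at -3.44 to -2.98 and -3.74 to -3.14. *Dnajb1* followed, at -2.88 to -1.73. With clusters joined into classes and libraries weighted equally, the sum was at -1.28 in cycling over MuSC-like cells, from -2.30 to -0.019 over 4 libraries, at -1.25 in differentiating cells, from -1.63 to -0.31, and at -1.66 in DMD-enriched-like cells, from -1.82 to -1.503 over 2 libraries. With predicted doublets kept and cells clustered again, the differentiating value was -2.30 and the DMD-enriched-like value -0.70, where the DMD-enriched-like class held 1316 B10 and 661 DBA cells and so was another population. With the left-out genes kept in the clustering features, no cluster was named DMD-enriched-like, and the differentiating class held 1243 *mdx* and 839 D2-*mdx* cells. That class scored 1.70 for the differentiating and 1.60 for the DMD-enriched markers. Without integration, clusters took the most common main class of their cells, and none was DMD-enriched-like by that rule. By the fixed markers, a cluster led by *Postn* would have been, with 21 B10, 3943 *mdx*, 3 DBA and 628 D2-*mdx* cells.

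Against the other genes of the same cluster comparison, 4 of 10 members were past 2-fold lower in cluster 5 in *mdx* (*Hspa1a*, *Hspa1b*, *Dnajb1* and *Hspb1*), where 16.9% of genes were, and 5 of 10 in D2-*mdx*, which added *Bag3*, where 19.2% were. The chaperonin genes went the other way. *Hspd1* and *Hspe1* were past 2-fold higher in cluster 5 in *mdx*, where 11% of genes were, and together with *Hsp90aa1* in D2-*mdx*, where 13.1% were. *Hspd1* reached 718 CPM in cluster 5 against 221 CPM in cluster 0 in *mdx*, and 1014 CPM against 198 CPM in D2-*mdx*.

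The other cycling cluster showed the chaperonin genes high in each library. In cluster 4 the *Hspd1* level was 453, 938, 573 and 967 CPM in B10, *mdx*, DBA and D2-*mdx*, against 198 to 250 CPM in cluster 0. *Hspe1* was at 533, 1086, 566 and 1025 CPM there, and *Hsp90aa1* at 1196, 1055, 728 and 928 CPM. These 3 were the members past 2-fold higher in *mdx* and D2-*mdx*, where 11.8% and 12% of genes were, *Hspd1* alone was in DBA, where 3.81% were, and none was in B10, where 1.33% were. The stress-inducible sum of cluster 4 depended on the library, at 6472 CPM in B10 and 4161 CPM in DBA, near cluster 0, but at 2804 CPM in *mdx* and 1808 CPM in D2-*mdx*.

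Differentiating myocyte-like cells (cluster 3) held less inducible HSP70 than cluster 0. *Hspa1a* was at 1638, 813, 631 and 489 CPM in B10, *mdx*, DBA and D2-*mdx*, with log2 ratios to cluster 0 of -0.46, -1.75, -1.66 and -2.07. No member was past 2-fold lower in B10, where 4.3% of genes were. In *mdx* 2 members were, against 10.5% of genes, and 3 were in each of DBA and D2-*mdx*, against 4.97% and 9.39%. They were *Hspa1a* and *Hspa1b*, joined by *Dnajb1* in the DBA-background libraries. *Hspb1* differed less, by -0.60 to -0.18, and *Hspd1* was higher in all 4, by 0.57 to 1.24.

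DMD-enriched-like cells (cluster 2) were nearly absent from the wild-type libraries, with 9 B10 and 17 DBA cells against 827 in *mdx* and 470 in D2-*mdx*. *Hspa1a* was at 1043 CPM in *mdx* and 475 CPM in D2-*mdx* in this cluster, and *Hspa1b* at 1020 and 403 CPM. Both were past 2-fold lower than in cluster 0 in *mdx*, where 2.65% of genes were, and *Dnajb1* and *Hsph1* joined them in D2-*mdx*, where 3.69% were. *Hspa8* was slightly higher there, by 0.27 and 0.18, so the constitutive and inducible HSP70 genes diverged. The same held in clusters 3 and 5, and *Hspa8* was above cluster 0 in every other cluster and library compared.

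Cluster 1 was the state with the most *Fos*, at 14378, 20467, 11607 and 19944 CPM, and it had the most *Dnajb1* of the clusters with at least 20 cells in each library. *Dnajb1* was at 706, 1383, 593 and 963 CPM there against 475, 424, 331 and 464 CPM in cluster 0. *Bag3* was at 116, 126, 83.1 and 125 CPM against 72.4, 59.4, 55.6 and 63.8 CPM. Past 2-fold higher were *Dnajb1* and *Bag3* in *mdx*, where 1.86% of genes were, *Dnajb1* in D2-*mdx* (0.895%), and no member in B10 (0.957%) or DBA (0.743%). *Hspd1* and *Hspe1* stayed within -0.29 and 0.07 of cluster 0. In B10, DBA and D2-*mdx* 8 of the 10 members had a ratio above 0, and in *mdx* all 10 did. The median ratio of all genes was -0.11, -0.18, -0.09 and -0.11 in B10, *mdx*, DBA and D2-*mdx*. The share of all genes above 0 was not computed.

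Depth and immediate-early RNA moved with these states. Median UMIs per cell were 5402 to 9894 in cluster 1 and 14858.5 to 16436 in cluster 5 over the libraries named above, and the immediate-early genes summed to 55630 to 83258 CPM in cluster 1 but 5221 to 11268 CPM in cluster 5. The part of either in the member levels was not tested. *Hspb1* had its highest mean over libraries in cluster 7, led by *Hhip* and *Dlk1*, at 1184, 2405, 561 and 1313 CPM, by 0.64 to 1.18 over cluster 0, although in *mdx* cluster 1 was higher still at 2860 CPM. *Hspa8* was the most even member, with cluster means of 1887 to 2631 CPM.

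**Figure D2:**
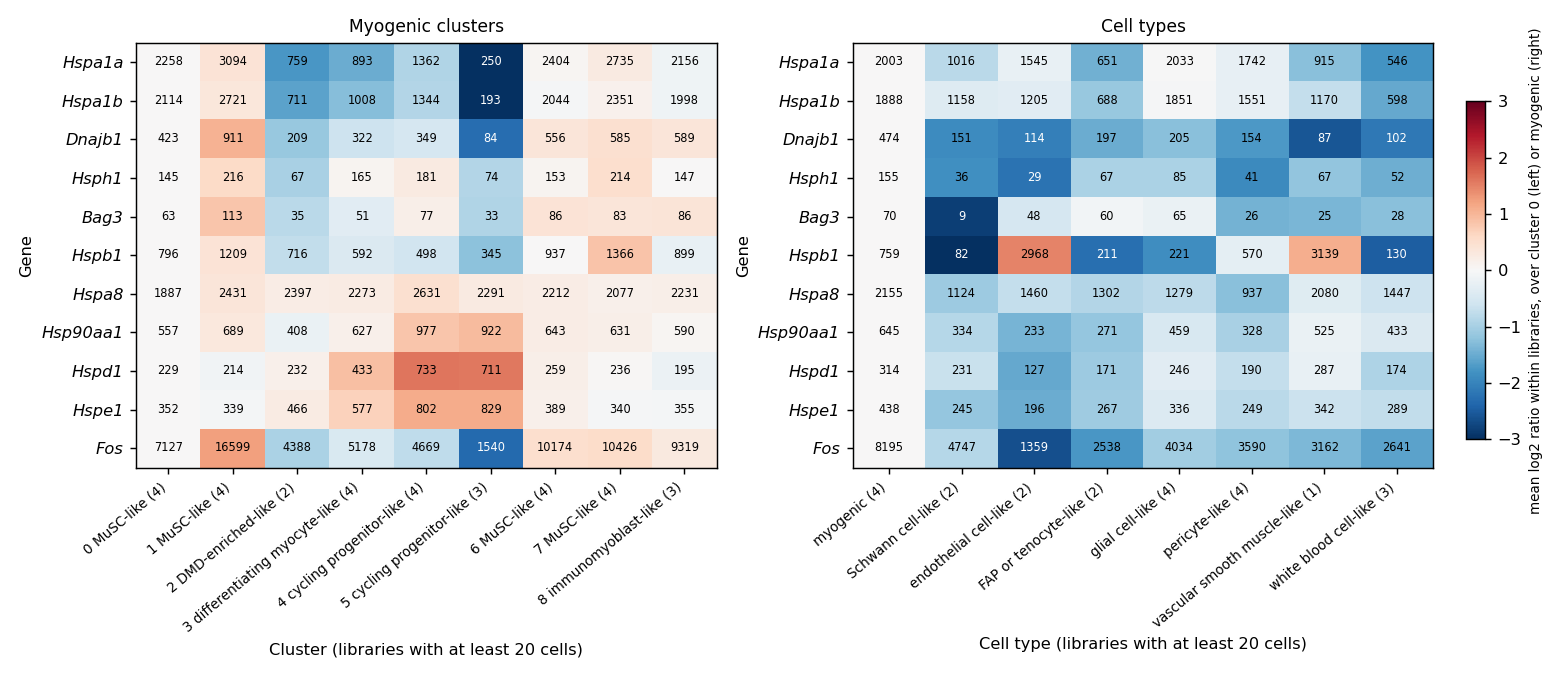
Mean CPM (numbers) of the members and *Fos* in 9 myogenic clusters (left) and in cell types (right), with libraries weighted equally, and the mean log2 ratio within libraries over cluster 0 or over myogenic cells (colour). *Hspa1a* and *Hspa1b* are lowest in cluster 5, *Hspd1* and *Hspe1* highest in clusters 4 and 5, and *Hspb1* highest in endothelial and vascular smooth muscle cells.

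Because the dystrophic libraries held more cycling, differentiating and DMD-enriched-like cells, the library ratios were recomputed inside clusters. Within cluster 0 the stress-inducible sum was higher in *mdx* than in B10 by 0.34 and hardly apart in D2-*mdx* and DBA, at 0.04. *Hspa1a* went from -0.17 over all myogenic cells to 0.28 within cluster 0 for *mdx* over B10, and from -0.51 to 0.04 for D2-*mdx* over DBA. *Hspd1* likewise went from 0.41 to -0.15 and from 0.57 to -0.33. The direction of both genes therefore differed between all myogenic cells and cluster 0.

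Some differences held inside several clusters. *Hspb1* was higher within clusters 0, 1 and 3, at 1.56, 2.25 and 1.27 for *mdx* over B10 and at 1.58, 1.59 and 1.72 for D2-*mdx* over DBA. Cluster 4 was an exception for *mdx* over B10, at -0.22. *Hspa1b* was lower in D2-*mdx* than in DBA in clusters 0, 1, 3 and 4, by -0.46, -0.37, -0.74 and -1.91. The stress-inducible sum was lower in D2-*mdx* than in *mdx* in all 9 clusters, by -1.04 to -0.42. In cluster 4 the sum was lower in both dystrophic strains, at -1.21 and -1.20.

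**Figure D3:**
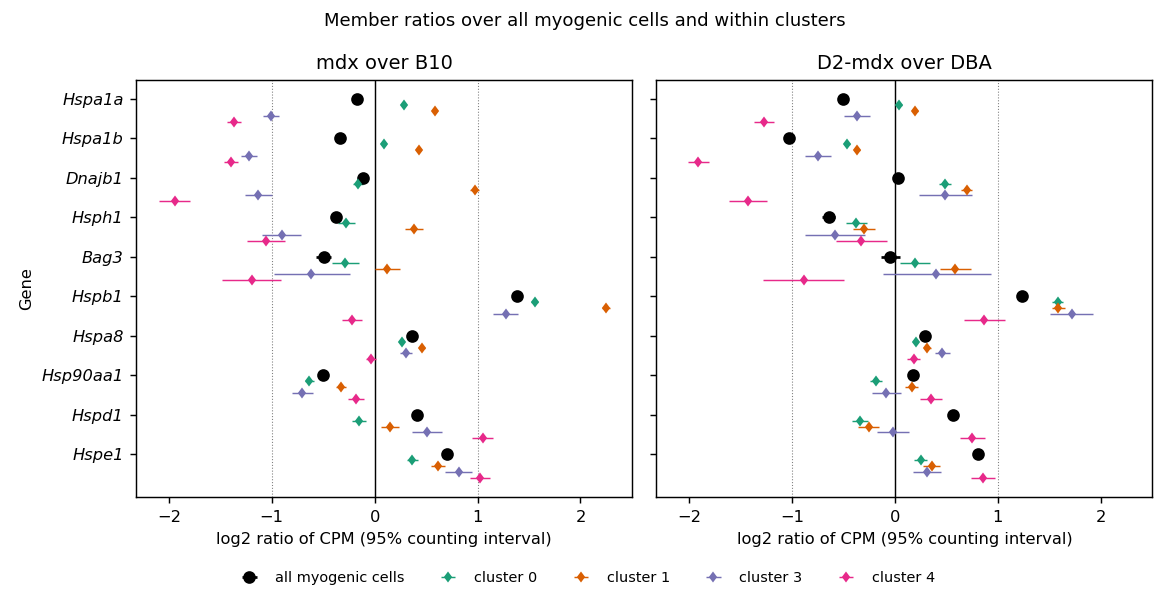
Log2 ratio of CPM (x axis) for each member over all myogenic cells (black) and within 4 clusters (colours), *mdx* over B10 on the left and D2-*mdx* over DBA on the right, with 95% counting intervals and dotted lines at 2-fold. *Hspb1* lies to the right in all but cluster 4 of *mdx* over B10, whereas *Hspa1a*, *Hspa1b* and *Dnajb1* lie on both sides in *mdx* over B10, with clusters 3 and 4 on the left.

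The sort also carried non-myogenic cells, which were named from fixed markers. There were 98, 611, 484 and 975 pericyte-like, 23, 357, 31 and 231 glial-like, 14, 252, 9 and 89 endothelial-like and 1, 110, 23 and 159 white blood cell-like cells in B10, *mdx*, DBA and D2-*mdx*. Schwann-like, vascular smooth muscle-like and fibro-adipogenic or tenocyte-like cells were fewer, at most 79, 55 and 50 in a library.

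*Hspb1* differed widely between cell types. Endothelial-like cells held it at 3814 CPM in *mdx* and 2122 CPM in D2-*mdx*, above the myogenic 1477 and 697 CPM by 1.37 and 1.61 on the log2 scale. Vascular smooth muscle-like cells held 3139 CPM in *mdx*. White blood cell-like cells held 165, 72.7 and 151 CPM in *mdx*, DBA and D2-*mdx*, and Schwann-like cells 35.9 and 129 CPM in *mdx* and D2-*mdx*. With cells thinned to 3000 UMIs, 99.6% of endothelial-like and 71.3% of myogenic cells of *mdx* held at least 1 *Hspb1* UMI, against 22.7% of white blood cell-like cells, at median depths of 7481, 6847.5 and 8232 UMIs before thinning, and no cell type here is known to lack the gene. *Hspb1* was thus neither uniform over cell types nor confined to muscle cells.

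Every member but *Hspa1a* and *Hspb1* had its highest mean over libraries in myogenic cells, although not every type was averaged over all 4 libraries. *Bag3* was still higher in glial-like than in myogenic cells in 3 of 4 libraries, and *Hspa1b* in 2 of 4. The *Hspa1b* means were close, at 1851 CPM in glial-like and 1888 CPM in myogenic cells. The share of all genes with their highest mean in myogenic cells was not computed. *Dnajb1* averaged 474 CPM in myogenic cells and 86.7 to 205 CPM in the other types. It was lower than in myogenic cells in every type and library measured, as were *Hsph1*, *Hspa8*, *Hsp90aa1*, *Hspd1* and *Hspe1*. *Hsph1* averaged 155 CPM against 29.4 to 84.5 CPM. In pericyte-like cells 6, 3, 4 and 6 of 10 members were past 2-fold lower than in myogenic cells of B10, *mdx*, DBA and D2-*mdx*, where 11.3%, 10.9%, 11.1% and 10% of genes were. *Dnajb1*, *Hsph1* and *Bag3* were among them in all 4 libraries.

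White blood cell-like cells held the least of the stress-inducible members, at 2028, 1128 and 1212 CPM in *mdx*, DBA and D2-*mdx*. Members past 2-fold lower than in myogenic cells numbered 5, 6 and 7, where 19%, 7.47% and 17.9% of genes were. In endothelial-like cells they numbered 5 in *mdx* and 5 in D2-*mdx* (16.5% and 16.1% of genes), and were *Dnajb1*, *Hsph1*, *Hsp90aa1*, *Hspd1* and *Hspe1* in both. *Hspa1a* and *Hspa1b* were less restricted. *Hspa1a* averaged 2033 CPM in glial-like, 1742 CPM in pericyte-like and 2003 CPM in myogenic cells.

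The *Hspb1* difference between strains was seen outside muscle cells too. In pericyte-like cells *Hspb1* was at 475, 939, 301 and 565 CPM in B10, *mdx*, DBA and D2-*mdx*, with log2 ratios of 0.98 (0.85 to 1.12) and 0.91 (0.83 to 0.99) over the wild-type counterparts. In glial-like cells the ratios were 1.83 and 2.06. *Hspa1a* was higher in dystrophic pericyte-like cells, by 1.09 (1.01 to 1.18) and 0.72 (0.68 to 0.76). It was lower over all dystrophic myogenic cells. Within MuSC-like cells it was higher, by 0.46 in *mdx* over B10 and 0.12 in D2-*mdx* over DBA.

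Members differed in how evenly cells shared them. All cells were thinned to 3000 UMIs, which left out 39 B10 cells. *Hspa8* was found in 97.2 to 99.1% of myogenic cells per library, and the 10% of cells with the most held 23.0 to 25.6% of its UMIs. *Hspb1* was found in 35.9% of B10, 71.3% of *mdx*, 29.8% of DBA and 51.9% of D2-*mdx* cells, and the top 10% held 70.0, 48.2, 70.5 and 59.5% of its UMIs. Higher *Hspb1* in the dystrophic libraries thus came with more cells in which it was detected.

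*Dnajb1* was detected in about the same share of cells in each library, 39.4 to 41.3%, with 56.4 to 63.5% of its UMIs in the top 10% of cells. *Bag3* was detected in 15.8 to 19.3% of cells, which limits what can be said of it per cell. A single cell held up to 230 UMIs of the 6 stress-inducible members in *mdx*, 176 in B10, 76 in DBA and 138 in D2-*mdx*, where the median cell held 15, 12, 13 and 9. The top 10% of cells held 28.4 to 35.8% of the UMIs of that sum.

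Across thinned myogenic cells, *Hspa1a*, *Hspa1b* and *Dnajb1* tended to be high in the same cells as *Fos*, whereas the chaperonin genes did not. Cells of a correlation share 1 library, and its capture and handling, so the values are descriptions with no p. Over 4379 B10, 4820 *mdx*, 2700 DBA and 4189 D2-*mdx* cells, Pearson's r with *Fos* on log(1 + UMIs) was 0.43, 0.55, 0.35 and 0.48 for *Hspa1a* and 0.42, 0.55, 0.35 and 0.48 for *Hspa1b*. *Dnajb1* came next, at 0.33, 0.45, 0.29 and 0.39. The sum of the 6 gave 0.53, 0.65, 0.46 and 0.60, and Spearman's rho 0.44, 0.65, 0.37 and 0.58. *Hspa1a* and *Hspa1b* made up most of that sum, 14.0, 15.8, 12.7 and 9.55 of 17.8, 23.6, 15.4 and 14.1 mean UMIs per cell.

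The remaining members ranged from weak positive to negative. *Hspb1* was at 0.20, 0.39, 0.16 and 0.22 and *Hspa8* at 0.32, 0.22, 0.25 and 0.15. *Hsph1* lay between 0.15 and 0.23 and *Bag3* between 0.11 and 0.18. *Hsp90aa1* lay between -0.02 and 0.10. *Hspe1* was at 0.02, -0.09, 0.00 and -0.26 and *Hspd1* at -0.02, -0.16, -0.08 and -0.30, lowest in D2-*mdx* for both.

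Set beside all genes with at least 0.1 UMI per thinned cell, most members stood high. The median gene had r between -0.03 and -0.01. At least 0.2 was reached by 5 of 10 members in B10 and 6 in *mdx*, where 1.23% and 2.4% of genes reached it, and by 4 in each of DBA and D2-*mdx*, where 0.844% and 2.65% did. The 3403 genes measured in all 4 libraries, with *Fos* itself at rank 1, were ranked by mean r. *Hspa1a* was 13, *Hspa1b* 14, *Dnajb1* 23, *Hspb1* 43, *Hspa8* 45, *Hsph1* 70, *Bag3* 85 and *Hsp90aa1* 259, and *Hspe1* and *Hspd1* were 3059 and 3331.

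**Figure D4:**
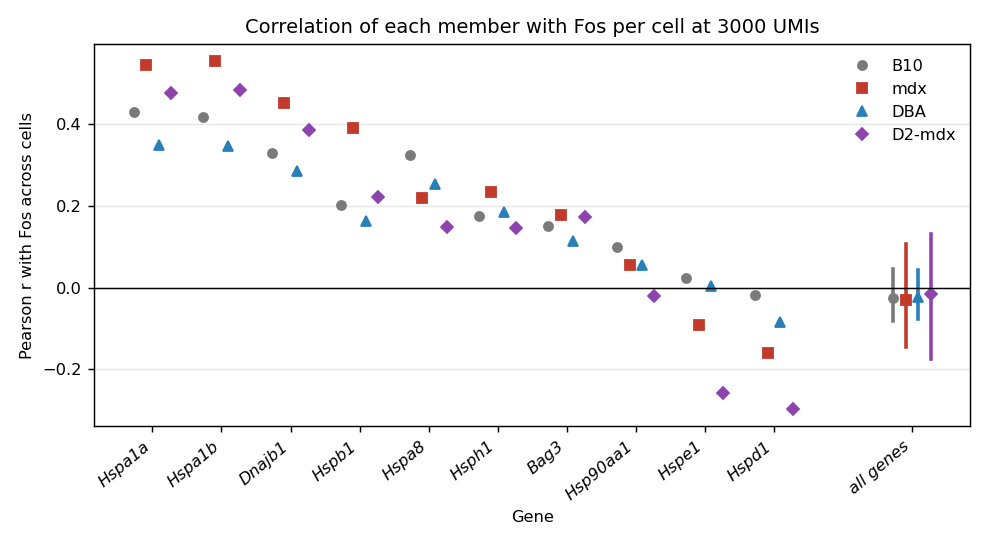
Pearson's r of each member with *Fos* across myogenic cells thinned to 3000 UMIs (y axis), 1 point per library, with the median and the range from the 5th to the 95th percentile over all genes at the right. *Hspa1a*, *Hspa1b*, *Dnajb1*, *Hspb1*, *Hspa8*, *Hsph1* and *Bag3* lie above that range in all 4 libraries, *Hspd1* lies below it in all but B10, and *Hspe1* lies below it in D2-*mdx*.

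Mean UMIs per cell by *Fos* level showed the shape of these relations. From cells with 0 to 4 *Fos* UMIs to cells with 50 or more, the stress-inducible sum went from 4.69 to 23.7 UMIs for B10 cells and from 5.54 to 18.8 for DBA cells, and for the dystrophic *mdx* and D2-*mdx* cells from 6.43 to 43.3 and from 3.24 to 22.7. In the wild-type libraries most of the step was made by 10 to 19 *Fos* UMIs, where B10 was at 19.6 and DBA at 16.3, and in the dystrophic libraries the sum was higher in each next bin. *Hspb1* went from 1.59 to 10.0 UMIs in *mdx* but only from 0.25 to 0.79 in DBA. In every bin *Hspb1* was higher in *mdx* than in B10 and in D2-*mdx* than in DBA.

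*Hspd1* ran the other way in the dystrophic libraries, from 1.78 UMIs in the lowest *Fos* bin to 0.59 in the highest in D2-*mdx* and from 1.21 to 0.68 in *mdx*. B10 was flat, at 0.68 and 0.62. *Hspe1* went from 2.15 to 1.02 in D2-*mdx*. Cluster 5, low in *Fos* and high in the chaperonin genes, held 160 *mdx* and 319 D2-*mdx* cells against 5 in B10 and 23 in DBA. Within cluster 0 alone *Hspd1* had r between -0.03 and 0.03 with *Fos*. The part of cluster 5 in the *Hspd1* and *Hspe1* values was not tested.

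**Figure D5:**
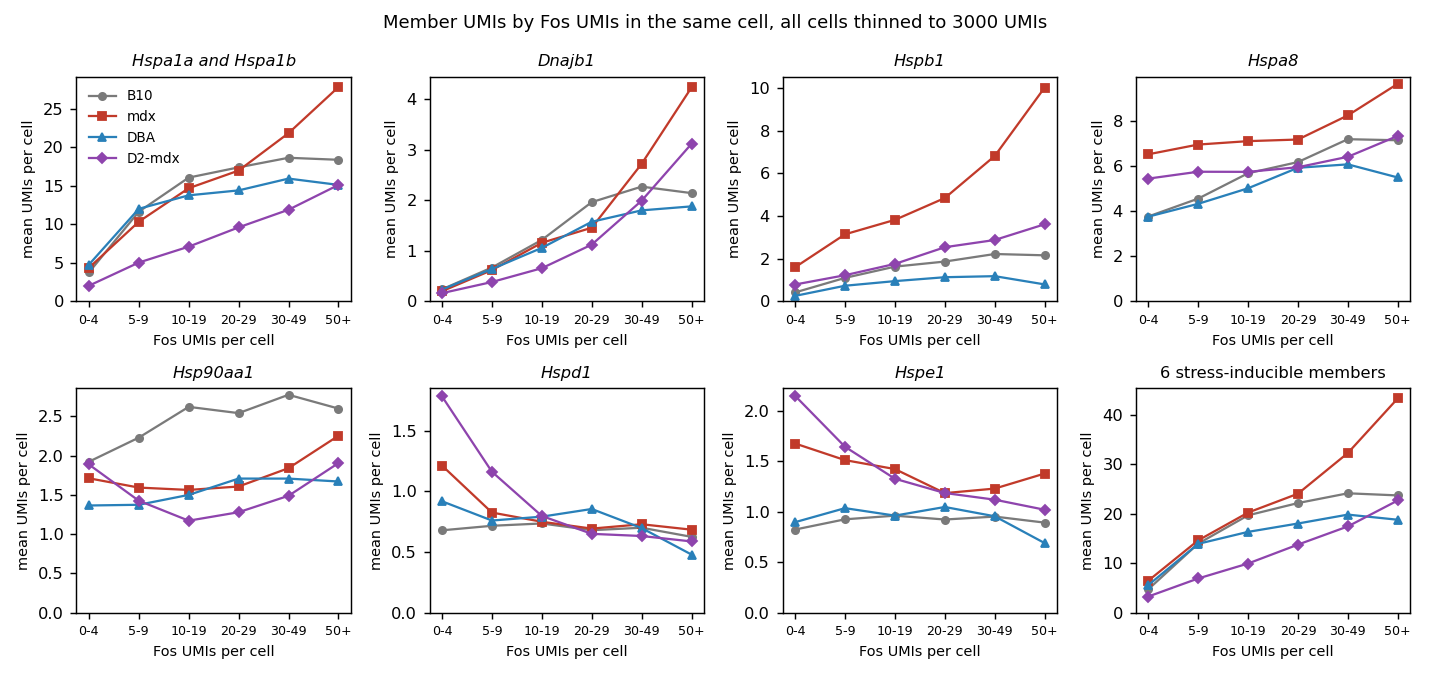
Mean UMIs of members per myogenic cell (y axes, starting at 0 and differing between panels) by the number of *Fos* UMIs in the same cell (x axis, 6 bins), with cells thinned to 3000 UMIs and 1 line per library. *Hspa1a* with *Hspa1b*, *Dnajb1* and *Hspb1* are higher in the highest than in the lowest bin in all libraries, and *Hspd1* is lower.

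The relation of the stress-inducible sum to *Fos* was also present inside cluster 0 and was weaker inside cluster 1. Within cluster 0 r was 0.63, 0.63, 0.52 and 0.51 in B10, *mdx*, DBA and D2-*mdx*, and within cluster 1, the state with the most *Fos*, it was 0.14, 0.31, 0.07 and 0.24. Glial-like cells gave 0.65 in *mdx* and 0.73 in D2-*mdx*, and pericyte-like cells 0.20 to 0.40 over the 4 libraries. The sum had r of -0.31 to -0.17 with the mitochondrial share of UMIs. With the log of total UMIs before thinning B10 had r of 0.31 and DBA of -0.03, but *mdx* and D2-*mdx* had -0.26 and -0.37. The part of either in the relation with *Fos* was not tested.

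Among themselves, *Hspa1a*, *Hspa1b*, *Dnajb1* and *Hspb1* had lower r with *Hspd1* and *Hspe1* than with each other in every library. In B10 those lower r were still above 0, up to 0.085 for *Hspa1b* with *Hspe1*, against 0.095 for *Hspd1* with *Hspe1*. The other members stood less apart from *Hspd1* and *Hspe1*. *Hsph1* and *Bag3* had a mean r of 0.08 over libraries, below the 0.12 of *Hspa8* and *Hspe1*. *Hspa1a* and *Hspa1b* had r of 0.61 to 0.73, each had 0.31 to 0.44 with *Dnajb1* and 0.19 to 0.43 with *Hspb1*, and *Hspd1* had -0.18 to 0.04 with either. *Hspe1* had -0.15 to 0.06 with *Hspa1a* and -0.15 to 0.09 with *Hspa1b*. *Hspd1* and *Hspe1* had 0.09 to 0.27 with each other. Outside every list used here, the 5 genes most like the stress-inducible sum were *Ppp1r15a* (mean r 0.28), *Id3* (0.23), *Pnrc1* (0.22), *Rhob* (0.21) and *Id1* (0.20), where the median of 3403 genes was -0.02.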

How the data were processed

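The deposited values were raw UMI counts per gene and cell barcode, 1 matrix per strain, which the authors made from 10X 3′ reads with Cell Ranger 3.0.1 against mm10. A cell was kept if it had between 1000 and 5000 genes and no more than 8% of its UMIs from mitochondrial genes, and the cells with the highest Scrublet scores were removed as doublets, at a rate of 0.008 per 1000 cells recovered (scanpy 1.11.5). Libraries were integrated and clustered in Seurat 5.3.0 (R 4.3.3) with 30 dimensions, at a resolution of 0.1 for all cells and 0.2 for myogenic cells. Members, other chaperones, endoplasmic reticulum chaperones and immediate-early genes were left out of the clustering features. Clusters were named by their highest mean score over fixed markers, of which at least 3 had to be detected. Levels are UMIs summed over cells and scaled to 1000000 UMIs (CPM), with exact Poisson intervals, and log2 ratios carry exact binomial intervals (scipy 1.17.1). UMIs were thinned to 3000 per cell for shares of cells and correlations. Ratios and correlations were tested on simulated data first. With 1 library per strain no test between strains was made. Normalization factors from edgeR 4.0.16 and DESeq2 1.42.0 were used only as alternative scalings of the summed counts. The members and lists were chosen with earlier results of these data known. Named genes were all 10 members and, from each other list, the 3 with the largest absolute mean log2 ratio over both disease comparisons among genes at 10 CPM or more in all 4 libraries, with exceptions marked where they stand.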

Additional observations from a re-analysis of the deposited data

Results flagged for a closer look

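*Hsp90aa1* and *Dnajb1* stood on opposite sides of 0 in the dystrophic comparisons. The log2 ratio of *Hsp90aa1* was -0.50 in *mdx* over B10 and 0.18 in D2-*mdx* over DBA, and that of *Dnajb1* was -0.12 and 0.037. There was 1 library per strain, so that the difference between the comparisons was not tested.

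The 6 stress-inducible members were also counted in barcodes that the filters removed. They made up 3277 CPM in the 4739 B10 barcodes under 1000 genes and 4528 CPM in the 389 B10 barcodes with 1000 to 5000 genes and above 8% mitochondrial UMIs, against 6300 CPM in the myogenic cells of that library. They made up 923 CPM in the 502 D2-*mdx* barcodes above 5000 genes, against 3725 CPM, and 6973 CPM in the 356 predicted doublets of *mdx*, against 6317 CPM.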

How the results depend on the processing

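No paired analysis was possible because each strain was 1 library and the labels carry no shared replicate numbers. With 1 library per strain, strain, age and library cannot be told apart, and intervals cover counting error only.

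The log2 ratio of the stress-inducible sum in *mdx* over B10 was 0.058 with TMM library sizes, 0.061 with DESeq2 size factors, 0.41 with cells weighted equally, 0.58 in MuSC-like cells, -0.039 with at most 5% mitochondrial UMIs, -0.0058 with predicted doublets kept and -0.18 with at least 500 genes and no upper limit. In D2-*mdx* over DBA the same settings gave -0.39, -0.36, -0.14, 0.13, -0.40, a value within counting error of the one reported, and -0.85, and all filtered cells gave -0.33. The direction thus changed with the cells compared, and the cause was not tested. Members past the fold in D2-*mdx* over DBA numbered 1 with TMM, DESeq2, cells weighted equally, MuSC-like cells, all filtered cells or 5% mitochondrial UMIs. With 1.5-fold as the limit *mdx* over B10 had 2 such members, D2-*mdx* over DBA had 4, D2-*mdx* over *mdx* had 3 and DBA over B10 had 2, where 23.9%, 30.5%, 9.02% and 8.88% of all genes were past it. With no upper gene limit D2-*mdx* over *mdx* had 2, and with 5% mitochondrial UMIs DBA over B10 had 1.

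With predicted doublets kept, the sum in differentiating over MuSC-like cells was -2.30 and in DMD-enriched-like over MuSC-like cells -0.70, in a class that then held 1316 B10 and 661 DBA cells against 9 and 17, and the latter was -1.25 with UMIs of all libraries summed. No class was named DMD-enriched-like with the left-out genes kept in the clustering features, where the differentiating class scored nearly as high for its markers. Without integration none was either, because clusters took the most common main class of their cells. The fixed markers alone would have named a cluster of 3943 *mdx* and 628 D2-*mdx* cells so. Leaving out each library in turn, an alternative chosen after seeing the data, gave -1.56 to -1.12 for differentiating, -1.70 to -0.94 for cycling and -1.82 to -1.503 for DMD-enriched-like cells. It gave -1.90 to -1.63 for white blood cell-like, -0.64 to -0.21 for pericyte-like and -0.42 to -0.10 for glial-like cells, 1.37 to 1.61 for *Hspb1* in endothelial-like cells, 0.53 to 0.59 for the mean r with *Fos* and 32.0 to 34.5% for the share of the sum held by the top 10% of cells.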

Other observations

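Over all myogenic cells, chaperones of the endoplasmic reticulum, which fold secreted and membrane proteins, were higher in both dystrophic libraries and most so in *mdx*. Their ratios were not read within clusters. The 16 genes summed to 2563 CPM in B10, 5183 CPM in *mdx*, 2595 CPM in DBA and 3463 CPM in D2-*mdx*. In *mdx* over B10, 7 of 16 were past 2-fold higher and 0 lower, with a median log2 ratio of 0.91, and in D2-*mdx* over DBA 0 of 16 were past it in either direction, with a median of 0.43. Of all genes, 9.89% and 11.7% were past 2-fold in these comparisons. The 3 genes with the largest mean ratio were *Serpinh1*, the collagen chaperone HSP47, at 228, 721, 251 and 446 CPM in B10, *mdx*, DBA and D2-*mdx*, *Pdia6*, a disulfide isomerase, at 121, 318, 119 and 193 CPM, and *Hspa5*, the HSP70 of this compartment, at 593, 1277, 447 and 714 CPM.

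The 21 immediate-early genes in the tables summed to 43301 CPM in B10, 33835 CPM in *mdx*, 35143 CPM in DBA and 35110 CPM in D2-*mdx*. In *mdx* over B10, 0 were past 2-fold higher and 3 lower, with a median log2 ratio of -0.24. In D2-*mdx* over DBA 4 were higher and 0 lower, with a median of 0.27. Of all genes, 9.89% and 11.7% were past 2-fold in either direction in these comparisons. *Gadd45b* was at 99.0, 161, 57.9 and 165 CPM, *Fosb* at 3357, 1507, 2901 and 1921 CPM and *Zfp36* at 837, 392, 595 and 420 CPM. Haemoglobin RNA was led by *Hbb-bt*, *Hbb-bs* and *Hba-a1*, with log2 ratios of 0.72, 0.64 and 0.67 in *mdx* over B10 and 1.71, 1.75 and 1.36 in D2-*mdx* over DBA.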
